A study of Mus musculus with 3 samples.

Results

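Cd163, Mrc1, Lyve1, Folr2, Msr1, Marco, Cbr2 and Vsig4 are 8 genes known as markers of macrophages that reside in tissue, most of them scavenger or uptake receptors of the cell surface. They were chosen by a list of names, with no threshold on a measured value but with earlier results of these data known. They make up 8 of the 27998 genes counted. They were followed in sciatic nerve macrophages of the inbred mouse strain C57BL/6, with 1 library of 728 cells from nerve at steady state, 1 library of 2793 cells at 1 day after nerve crush and 1 library of 2059 cells at 5 days after it. Nerve crush is an injury that cuts through the axons and spares the connective tissue sheath. The sources do not give the sort or the number of animals behind each library. With 1 library per time point, time after injury and library cannot be told apart, no test was possible, and each value describes these libraries.

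Scavenger receptors bind and take up modified lipoproteins, dying cells, microbes, haemoglobin complexes and matrix fragments, and so let macrophages clear their surroundings without a specific antigen. In many tissues Lyve1, Folr2, Cd163 and Mrc1 mark resident macrophages near vessels and in connective tissue sheaths, and C-type lectins of the Cd209 family are found on many of the same cells. After nerve injury, monocytes from blood enter the nerve and join the resident macrophages, and myelin and axon debris is taken up by these cells.

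All 9 macrophage markers of a list (Csf1r, Adgre1, Fcgr1, Cd68, Lyz2, Aif1, C1qa, Mertk and Itgam) were detected in each library, with a summed level of 31864 CPM at steady state, 24234 CPM at day 1 and 32450 CPM at day 5, where CPM is a gene's UMIs, the tags that count captured RNA molecules, per 1000000 UMIs of a library. At least 2 UMIs of this list were found in 727 of 728, 2786 of 2793 and 2057 of 2059 cells. The libraries held 1656510, 7963091 and 5524496 UMIs, with medians of 2238.5, 2555 and 2473 UMIs per cell. Libraries shared 2 to 11 cell barcodes per pair, and none of the shared barcodes had identical counts. Summed levels of the neutrophil, B cell, fibroblast, blood endothelial and Schwann cell lists were at most 50.4 CPM in any library. The summed level of 4 monocyte markers was 42.9 CPM at steady state, 2034 CPM at day 1 and 653 CPM at day 5. How far that difference contributes to the levels given here was not tested.

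The genes lie on 7 mouse chromosomes in the GRCm38.p6 annotation, with Lyve1 and Folr2 both on chromosome 7. Cd163 spans chr6:124304636-124330529, Mrc1 chr2:14229414-14332023, Lyve1 chr7:110850607-110862953 and Folr2 chr7:101839988-101857190. Msr1 spans chr8:39543232-39642750, Marco chr1:120474538-120505024, Cbr2 chr11:120729485-120732025 and Vsig4 chrX:96247201-96293438. RefSeq promoter windows of this build, running from 250 bases before to 50 bases after a gene's start, were matched for 6 of the 8 genes, with Lyve1 and Msr1 not matched. Shown are the windows of Cd163, Folr2 and Cbr2, 3 genes that were lower in both injured libraries, and of Mrc1, which stayed within 2-fold. Folr2 has 2 annotated starts. Capitals mark matches on either strand to the PU.1 core GAGGAA, the MAF site TGCTGA or the AP-1 site TGANTCA, motifs bound by factors known from macrophages.
Cd163 chr6:124304401-124304700 (+ strand): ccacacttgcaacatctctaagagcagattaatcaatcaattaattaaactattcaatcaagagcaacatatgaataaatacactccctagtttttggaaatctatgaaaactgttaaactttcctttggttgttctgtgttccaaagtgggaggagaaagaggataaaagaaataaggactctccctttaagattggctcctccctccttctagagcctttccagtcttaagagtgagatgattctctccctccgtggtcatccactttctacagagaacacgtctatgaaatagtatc
Folr2 chr7:101857141-101857440 (- strand): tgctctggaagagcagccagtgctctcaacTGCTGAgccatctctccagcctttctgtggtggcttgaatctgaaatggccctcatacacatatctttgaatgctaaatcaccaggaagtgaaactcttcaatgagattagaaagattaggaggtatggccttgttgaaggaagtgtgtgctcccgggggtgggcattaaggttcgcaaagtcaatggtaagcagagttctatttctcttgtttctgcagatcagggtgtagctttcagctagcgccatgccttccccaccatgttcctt
Folr2 chr7:101845282-101845581 (- strand): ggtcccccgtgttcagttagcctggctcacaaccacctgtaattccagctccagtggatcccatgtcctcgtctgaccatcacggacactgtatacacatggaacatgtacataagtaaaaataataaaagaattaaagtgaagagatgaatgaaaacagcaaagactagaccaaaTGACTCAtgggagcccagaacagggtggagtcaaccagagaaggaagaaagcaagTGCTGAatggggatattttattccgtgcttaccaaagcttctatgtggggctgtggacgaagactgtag
Cbr2 chr11:120731972-120732271 (- strand): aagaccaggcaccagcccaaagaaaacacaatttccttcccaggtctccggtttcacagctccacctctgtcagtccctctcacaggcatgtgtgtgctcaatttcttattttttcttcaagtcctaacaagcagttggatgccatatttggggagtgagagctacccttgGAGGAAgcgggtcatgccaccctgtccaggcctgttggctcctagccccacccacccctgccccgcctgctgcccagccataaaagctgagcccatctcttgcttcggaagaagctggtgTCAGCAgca
Mrc1 chr2:14229164-14229463 (+ strand): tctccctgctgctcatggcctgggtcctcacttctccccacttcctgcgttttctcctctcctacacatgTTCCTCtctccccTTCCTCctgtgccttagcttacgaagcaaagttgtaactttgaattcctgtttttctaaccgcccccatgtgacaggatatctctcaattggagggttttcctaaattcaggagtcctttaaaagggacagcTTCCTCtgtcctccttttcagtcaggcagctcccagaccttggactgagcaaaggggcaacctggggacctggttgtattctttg

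The Cd163 window held no match to these letters, and the Mrc1 window held 3 matches to GAGGAA, all read on the opposite strand as TTCCTC. Both Folr2 windows held TGCTGA, and the window at the start further inside the locus also held TGACTCA. Cbr2 had 1 match each to GAGGAA and TGCTGA, the second read as TCAGCA on the opposite strand. Of the windows not printed, Marco held 1 match to GAGGAA, and Vsig4 held 2 matches to GAGGAA and 1 to TGCTGA. No capital stretch belongs to more than 1 of the motifs in the windows shown. Among all 32851 windows of the same length, 28.3% held GAGGAA, 19.5% held TGCTGA and 7.81% held TGANTCA, so single matches are common. A match is a description of the letters and shows no binding.

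Cd163, Lyve1, Folr2 and Cbr2 were each at least 4-fold lower in both injured libraries than at steady state. Mrc1 stayed within 2-fold, Msr1 was 4.14-fold higher at day 1 and near its steady-state level at day 5, and Vsig4 and Marco were near the detection limit throughout. A gene was counted as past 2-fold where it had at least 50 CPM in either library of a pair, a floor that 6 of the 8 genes passed in each comparison with steady state. At day 1, 4 of the 8 genes were at least 2-fold lower, against 12.6% of all 2765 genes past the floor. The 1 gene at least 2-fold higher at day 1 was Msr1, against 18.7% of all genes. At day 5, the same 4 genes were lower, against 9.56% of all 2585 genes past the floor, and 0 of the 8 were higher, against 7.89%. The median log2 ratio of the 6 genes past the floor was -2.48 at day 1 and -2.08 at day 5, against 0.25 and 0.07 for all genes past it. The 8 genes were chosen with earlier results of these data known, so these counts and medians only describe them and carry no test.

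**Figure D1:**
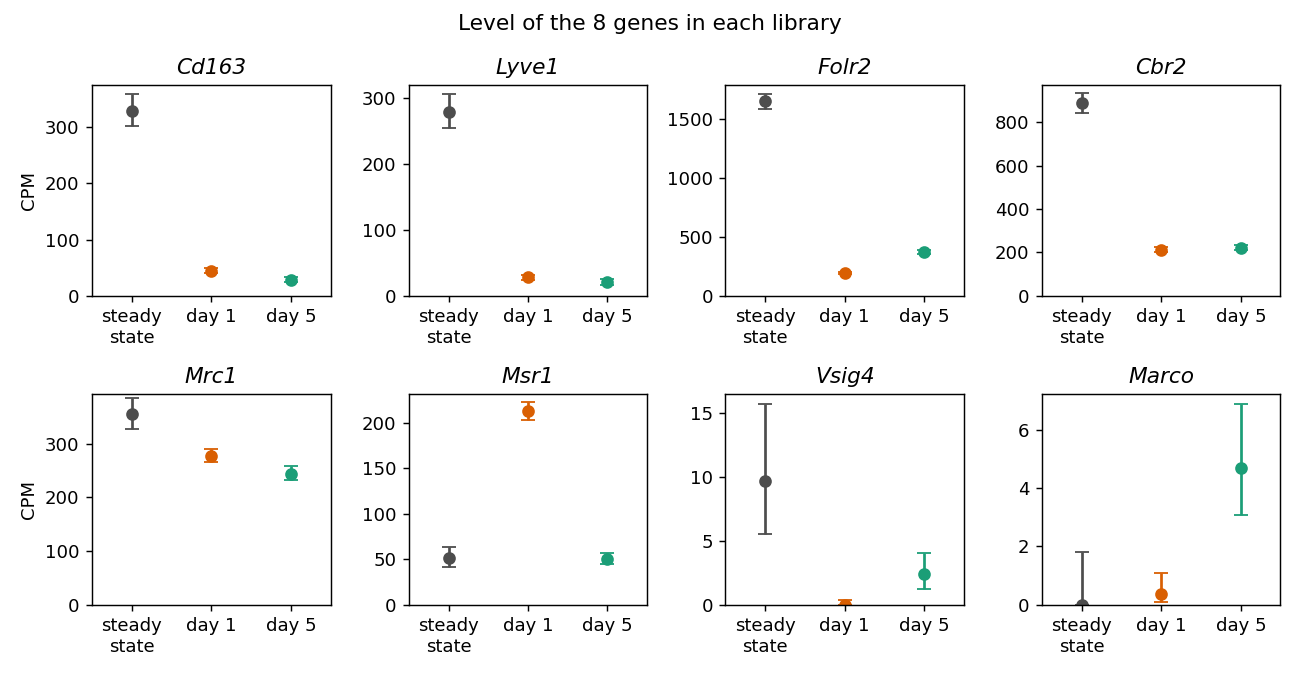
Level of each of the 8 genes, in CPM, in the steady-state, day 1 and day 5 libraries, with 1 point per library, exact 95% Poisson intervals for counting error as bars (up to 3 counts for a count of 0) and an axis from 0 in each panel. Cd163, Lyve1, Folr2 and Cbr2 are highest at steady state, and Msr1 is highest at day 1 with 212 CPM.

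Cd163 is the receptor that takes up complexes of haemoglobin and haptoglobin. Its level was 329.6 CPM at steady state (95% interval 302.5 to 358.5), 44.6 CPM at day 1 (40.1 to 49.5) and 28.2 CPM at day 5 (24.0 to 33.0). The 3 intervals do not overlap, and the steady-state library stands far above the injured ones. Cd163 was 7.39-fold lower at day 1 than at steady state (6.46 to 8.47) and 11.7-fold lower at day 5 (9.75 to 14.0). Between day 5 and day 1 it differed by less than 2-fold, at 1.58-fold lower (1.30 to 1.92). With every cell weighted equally, the day 5 to day 1 ratio was 0.912 in place of 0.633, so this small difference depends on the weighting. Every interval here has a level of 95% and reflects counting error alone.

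Lyve1 is a receptor for the matrix sugar hyaluronan that is shared by lymphatic endothelium and a class of resident macrophages. Its level was 278.9 CPM at steady state (254.0 to 305.5), 27.9 CPM at day 1 (24.3 to 31.8) and 20.8 CPM at day 5 (17.2 to 24.99). The injured libraries lie close together and far below steady state. Lyve1 was 10.0-fold lower at day 1 (8.51 to 11.8) and 13.4-fold lower at day 5 (10.9 to 16.6). Lyve1 also marks lymphatic vessels, whose markers Prox1, Flt4, Mmrn1 and Reln had 0 UMIs in all 3 libraries. The whole 6-gene lymphatic list was at 0 UMIs at steady state, 84.8 CPM at day 1, where 674 of its 675 UMIs were Pdpn, and 6.15 CPM at day 5.

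Folr2 is the folate receptor beta of macrophages. Its level was 1651 CPM at steady state (1590 to 1714), 191 CPM at day 1 (182 to 201) and 369 CPM at day 5 (353 to 386). Folr2 was lowest at day 1 and stood between the other libraries at day 5. It was 8.64-fold lower at day 1 than at steady state (8.11 to 9.20) and 4.47-fold lower at day 5 (4.22 to 4.74). Folr2 was 1.93-fold higher at day 5 than at day 1 (1.81 to 2.07), just under the 2-fold line. It was 2.25-fold higher when every cell was weighted equally and 2.04-fold higher without the 5% of cells with the most UMIs.

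Cbr2 is a carbonyl reductase, an enzyme and not a receptor, that is known as a marker of resident macrophages in mice. Its level was 889 CPM at steady state (844 to 935), 212 CPM at day 1 (202.5 to 223) and 221 CPM at day 5 (209 to 234). The day 1 and day 5 intervals overlap. Cbr2 was 4.18-fold lower at day 1 than at steady state (3.90 to 4.49) and 4.01-fold lower at day 5 (3.72 to 4.33). The ratio of day 5 to day 1 was 1.04 (0.967 to 1.12).

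Mrc1 encodes the mannose receptor, a lectin for the uptake of glycoproteins. Its level was 356 CPM at steady state (328 to 386), 278 CPM at day 1 (267 to 290) and 245 CPM at day 5 (232 to 258). The order is the same as for Cd163 and Lyve1, but the differences are small. Mrc1 was 1.28-fold lower at day 1 than at steady state (1.17 to 1.40) and 1.46-fold lower at day 5 (1.32 to 1.60). Neither ratio passed 2-fold under any alternative run.

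Msr1 is the class A scavenger receptor for modified lipoproteins. Its level was 51.3 CPM at steady state (41.0 to 63.4), 212 CPM at day 1 (202.5 to 223) and 49.96 CPM at day 5 (44.2 to 56.2). Day 1 stands apart, and the intervals of the other libraries overlap. Msr1 was 4.14-fold higher at day 1 than at steady state (3.33 to 5.21), and the ratio of day 5 to steady state was 0.974 (0.761 to 1.26). Between day 5 and day 1, Msr1 was 4.25-fold lower (3.74 to 4.85). It was the only one of the 4 members past the floor in that comparison to pass 2-fold, against 6.41% of all 2541 genes lower and, for 0 members higher, 3.38% of all genes.

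Vsig4 is a complement receptor known from Kupffer cells and other resident macrophages. It had 16 UMIs at steady state, 0 at day 1 and 13 at day 5, or 9.66 CPM (5.52 to 15.7), 0 CPM (up to 0.377 by 3 counts) and 2.35 CPM (1.25 to 4.02). Set against 3 counts in place of 0, Vsig4 was at least 25.6-fold lower at day 1 than at steady state, a bound that leaves out the counting error of the 16 steady-state UMIs, and 4.10-fold lower at day 5 (1.85 to 9.28). The steady-state UMIs came from 8 cells and the day 5 UMIs from 6 cells, so a few cells set these values.

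Marco, the other class A member, binds bacteria and particles and is best known from alveolar and marginal zone macrophages. It had 0 UMIs at steady state, 3 at day 1 and 26 at day 5, which is 0 CPM (up to 1.81 by 3 counts), 0.377 CPM (0.0777 to 1.10) and 4.71 CPM (3.07 to 6.90). Set against 3 counts in place of 0, Marco was at least 2.60-fold higher at day 5 than at steady state, without the counting error of the 26 UMIs, and no fold is given for day 1. The ratio of day 5 to day 1 was 12.5 (3.83 to 64.5), with 3 UMIs behind the day 1 value. The 26 UMIs of day 5 came from 12 cells, of which 6 also held Mrc1, 3 Folr2, 3 Cbr2 and 2 Cd163.

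Detection per cell followed the summed levels. Since a cell with more UMIs detects more genes, each cell was drawn down to 1000 UMIs, which left 638 steady-state, 2496 day 1 and 1777 day 5 cells and dropped 90, 297 and 282 shallower ones. On that scale Cd163 was found in 23.8% of cells at steady state, 3.41% at day 1 and 2.70% at day 5. Lyve1 was found in 15.8%, 1.96% and 1.91% of cells. Both genes were therefore detected in a minority of cells at steady state and in very few cells after injury. At this depth a cell that expresses a gene can show 0 UMIs of it, so these are not shares of expressing cells. Folr2 was found in 52.2%, 13.6% and 24.4% of cells, and Cbr2 in 46.1%, 14.7% and 17.4%. Mrc1 was found in 26.5%, 17.9% and 19.6% of cells, and Msr1 in 4.39%, 15.5% and 4.33%. Mrc1 thus had similar shares in the injured libraries, and Msr1 stood out at day 1 alone. Without drawing down, the shares were higher, for example 37.8%, 7.12% and 4.76% for Cd163 and 8.52%, 33.1% and 10.1% for Msr1. Vsig4 and Marco were found in at most 1.10% of cells of any library by either count, and 0 of 728 steady-state cells held Marco, so a share as high as 0.412%, or 3 cells, remains possible.

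The number of UMIs in cells that held a gene differed most between libraries for Folr2. After drawing down, cells with Folr2 had on average 3.11 UMIs of it at steady state, 1.38 at day 1 and 1.76 at day 5. The corresponding means were 1.84, 1.49 and 1.54 for Cbr2, 1.82, 1.47 and 1.38 for Lyve1, 1.38, 1.21 and 1.35 for Cd163 and 1.47, 1.56 and 1.39 for Mrc1. Cells with at least 5 Folr2 UMIs before drawing down numbered 211 of 728 at steady state, 66 of 2793 at day 1 and 129 of 2059 at day 5, and held 81.6%, 27.3% and 44.7% of its UMIs. Most Folr2 UMIs at steady state thus came from cells with many of them. Mrc1 had 16 such cells at steady state, 99 at day 1 and 41 at day 5, and 60 of the 99 at day 1 held at least 2 UMIs of Arg1, the arginase of repair macrophages, as did 2070 of all 2793 day 1 cells. Lyve1 was uneven too, since 10 cells held 28.6% of its UMIs at steady state, 34.7% at day 1 and 45.2% at day 5.

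Free RNA in droplets can give a UMI to a cell that does not express a gene. Cells with at least 2 UMIs of 6 dendritic cell markers (Ccr7, Ccl17, Ccl22, Fscn1, Flt3 and Xcr1) numbered 9 at steady state, 15 at day 1 and 21 at day 5, with medians of 2468, 2680 and 3577 UMIs per cell, against 2237, 2553 and 2467.5 in all other cells. At day 1 these cells had 0 UMIs of Cd163, Folr2, Msr1 and Cbr2 among 47464 UMIs, and 5 of Mrc1. The 1 Lyve1 UMI of these day 1 cells gave 21.1 CPM (0.533 to 117), against 27.9 CPM in the other cells. At day 5 they had 0 UMIs of Cd163, Lyve1 and Msr1, 6 of Folr2, 4 of Cbr2 and 1 of Marco. Folr2 had 73.8 CPM in them (27.1 to 161), against 374 CPM in the other cells, and Cbr2 49.2 CPM (13.4 to 126), against 224 CPM. Mrc1 had 17 UMIs or 209 CPM in them (121.8 to 334.6), against 245 CPM in the other cells, and dendritic cells can express it. At steady state Folr2 had 279 CPM in these cells (134 to 512), against 1681 CPM in the other cells. Msr1 had 2 UMIs or 55.7 CPM in them (6.75 to 201), against 51.2 CPM in the other cells. So few cells leave wide intervals, and 0 UMIs in them do not exclude the level of the other cells where that is low. That level was 44.8 CPM at day 1 and 28.7 CPM at day 5 for Cd163, and 21.1 CPM at day 5 for Lyve1. A background level could therefore not be told from the level in the other cells for Msr1 at steady state. By these few cells alone, the same holds for Cd163 and Lyve1 at day 1 and day 5. Both genes were uneven over the cells, as the split by Cd209 lectins below describes. Lyve1 had 540 CPM in cells with these lectins and 19.8 CPM in the others at day 1, and 342 and 6.24 CPM at day 5. Cd163 had 298 and 40.6 CPM at day 1, and 192 and 20.8 CPM at day 5. How far free RNA sets the level in the cells without lectins was not tested.

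The genes were compared between cells with and without Cd209 lectins. This split used none of the 8 genes, but it was chosen with earlier results of these data known. Cells with at least 2 UMIs of Cd209f, Cd209g, Cd209d, Cd209b and Fcna, lectins of a resident macrophage class, were called lectin cells. Fcna is a ficolin outside the Cd209 family and is counted with the Cd209 lectins here. It held 708 of the 5263 UMIs of these genes at steady state, 114 of 456 at day 1 and 432 of 1008 at day 5. Lectin cells made up 33.8% of the steady-state library (246 cells, 30.4 to 37.4), 1.83% at day 1 (51 cells, 1.36 to 2.39) and 5.10% at day 5 (105 cells, 4.19 to 6.14). A cell 1 UMI below the line was called other, which applied to 84, 44 and 141 cells. The median UMIs were 2359 in lectin cells and 2207 in the other cells at steady state, 1973 and 2578.5 at day 1, and 1889 and 2516.5 at day 5.

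Folr2 followed the lectins in every library. At steady state it had 3313 CPM in lectin cells (3167 to 3463), against 741 CPM in the other cells (690 to 794), a 4.47-fold difference (4.11 to 4.86), and lectin cells held 71.0% of its UMIs. It was 5.75-fold higher in lectin cells at day 1 (4.75 to 6.90) and 5.66-fold higher at day 5 (5.07 to 6.31). With a line of 1 lectin UMI these ratios were 3.62 at day 1 and 3.28 at day 5. After drawing down, Folr2 was found in 83.0% of lectin cells and 37.5% of the other cells at steady state.

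Lyve1 was also higher in lectin cells, and the gap was larger in the injured libraries. At steady state it had 452 CPM in lectin cells (399 to 510), against 184 CPM in the other cells (159 to 212), a ratio of 2.46 (2.03 to 2.97). At day 1 the levels were 540 CPM (418 to 685) in lectin cells and 19.8 CPM (16.8 to 23.1) in the other cells, a ratio of 27.3 (20.2 to 36.6). At day 5 they were 342 CPM (272 to 425) in lectin cells and 6.24 CPM (4.30 to 8.77) in the other cells, a ratio of 54.8 (36.2 to 84.7). The 105 lectin cells of day 5 held 71.3% of that library's Lyve1 UMIs. With a line of 1 lectin UMI the ratio was 1.97 at steady state, under 2-fold, and 24.5 at day 5, and with a line of 4 it was 18.5 at day 1.

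Cd163 differed little between these cells at steady state and strongly after injury. At steady state it had 367 CPM in lectin cells (319 to 419), against 309 CPM in the other cells (277 to 344), a ratio of 1.19 (0.994 to 1.41). At day 1 it had 298 CPM in lectin cells (210 to 411), against 40.6 CPM in the other cells (36.2 to 45.3), a 7.35-fold difference (5.08 to 10.3). At day 5 it had 192 CPM in lectin cells (140 to 256), against 20.8 CPM in the other cells (17.1 to 25.1), a 9.22-fold difference (6.39 to 13.1). With a line of 1 lectin UMI the ratios were 4.63 at day 1 and 5.25 at day 5. Cd163 was thus carried at steady state by cells with and without lectins alike. The difference between the ratios of the libraries was not tested.

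Cbr2 lay between these genes, with 1293 CPM in lectin cells and 667 CPM in the other cells at steady state, a ratio of 1.94 (1.75 to 2.15). The ratio was 4.99 at day 1 (4.12 to 6.00) and 5.19 at day 5 (4.48 to 5.99), and the day 5 ratio was 2.97 with a line of 1 lectin UMI. Mrc1 had 363 CPM in lectin cells and 352 CPM in the other cells at steady state, a ratio of 1.03 (0.868 to 1.22), then 2.40 at day 1 (1.90 to 2.99) and 1.82 at day 5 (1.47 to 2.22). Msr1 ran the other way at steady state and day 1, being lower in lectin cells by 1.90-fold (1.13 to 3.36) and 2.42-fold (1.35 to 4.86), and its day 5 ratio was 1.36 (0.764 to 2.25). Of the 16 Vsig4 UMIs at steady state, 13 came from lectin cells. At least 2-fold higher in lectin cells, at 50 CPM or more in either kind of cell, were 2 of the 8 genes at steady state, against 10.7% of all genes, 5 at day 1, against 14.6%, and 4 at day 5, against 9.18%. At least 2-fold lower were 0 of the 8 at steady state, against 7.64% of all genes, 1 at day 1, against 11.6%, and 0 at day 5, against 6.08%. These counts depend on the line: with 1 lectin UMI Lyve1 at steady state and Msr1 at day 1 stayed within 2-fold, and with 4 Mrc1 at day 1 had a ratio of 1.46 and Cbr2 at steady state of 2.14.

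**Figure D2:**
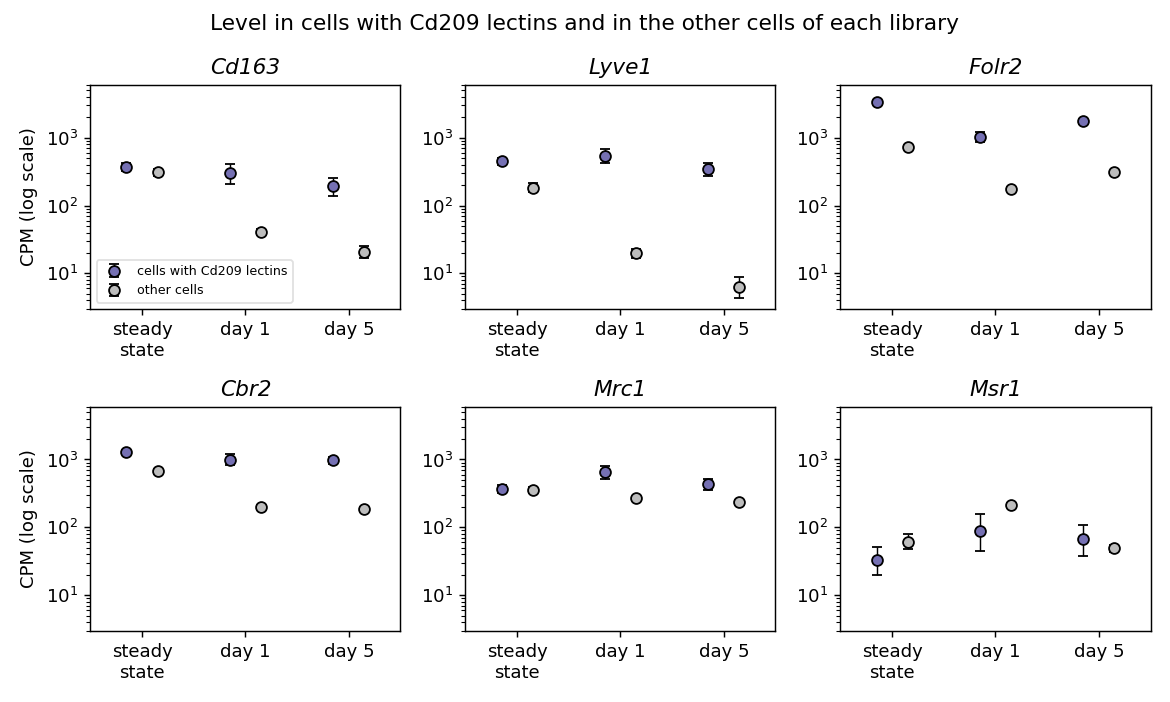
Level of 6 genes, in CPM on a log scale shared by all panels, in cells with Cd209 lectins and in the other cells of each library, with exact 95% Poisson intervals for counting error as bars. The points of Cd163 lie close together at steady state, at 367 and 309 CPM, and far apart at day 5, at 192 and 20.8 CPM.

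Lectin cells alone were then compared between libraries. Within them, Lyve1 had a ratio of 1.19 at day 1 to steady state (0.899 to 1.57) and was 1.32-fold lower at day 5 (1.03 to 1.71). Cd163 was 1.23-fold lower at day 1, with an interval that includes equal levels (0.865 to 1.80), and 1.91-fold lower at day 5 (1.38 to 2.69). Neither gene passed 2-fold in these cells, in contrast to the values over all cells. Cbr2 was 1.29-fold lower at day 1 (1.07 to 1.58) and 1.33-fold lower at day 5 (1.15 to 1.55). Folr2 was 3.24-fold lower at day 1 (2.71 to 3.91) and 1.90-fold lower at day 5 (1.71 to 2.12). Folr2 was thus the only one of these 4 genes that passed 2-fold within lectin cells with this line. Lectin genes were themselves lower after injury, with a summed level of 3177 CPM at steady state, 57.3 CPM at day 1 and 182 CPM at day 5, so the line selects a cell by genes that differ between the libraries. With a line of 1 lectin UMI all 4 genes passed 2-fold at day 5, Cd163 being 3.69-fold, Lyve1 2.87-fold, Folr2 2.82-fold and Cbr2 2.15-fold lower, so that call rests on the line.

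The cells without lectins also differed between libraries. In them Cd163 was 7.62-fold lower at day 1 than at steady state (6.52 to 8.92) and 14.9-fold lower at day 5 (11.9 to 18.6). Lyve1 was 9.31-fold lower at day 1 (7.50 to 11.6) and 29.5-fold lower at day 5 (20.3 to 44.0). For both genes the difference from steady state was thus present in cells with at most 1 lectin UMI. Folr2 was 4.16-fold lower at day 1 (3.81 to 4.55) and 2.41-fold lower at day 5 (2.21 to 2.63) in these cells, and Cbr2 3.34-fold (3.05 to 3.65) and 3.56-fold (3.23 to 3.92). Msr1 was 3.48-fold higher at day 1 (2.72 to 4.52). The cells without lectins are not matched between libraries. At least 2 monocyte-marker UMIs were found in 1.24% of all steady-state cells and 54.4% of all day 1 cells. How far that bears on these ratios was not tested.

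Monocyte markers divided the day 1 library nearly evenly. At least 2 UMIs of Ly6c2, Chil3, Plac8 and Vcan were found in 9 cells at steady state (1.24%), 1520 at day 1 (54.4%) and 398 at day 5 (19.3%). At day 1 Lyve1 had 11.7 CPM in monocyte-marker cells (8.96 to 15.1), against 56.7 CPM in the other cells (48.3 to 66.2), and was 4.83-fold lower (3.57 to 6.61). Cd163, Mrc1, Folr2 and Cbr2 were lower in them by 1.86-fold (1.50 to 2.30), 1.71-fold (1.57 to 1.86), 1.48-fold (1.33 to 1.63) and 1.57-fold (1.43 to 1.73). Msr1 was 1.23-fold higher in them (1.11 to 1.36), with 228 CPM against 185 CPM in the other cells. Monocyte-marker cells had more UMIs, with a median of 3238 against 1789, and the part of this depth in the split was not tested. In day 1 cells without these markers, Cd163 had 63.4 CPM (54.5 to 73.3), against 329.6 CPM in the whole steady-state library.

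Arg1, whose level was 0.604 CPM at steady state, 4483 CPM at day 1 and 209 CPM at day 5, marked 2070 of the 2793 day 1 cells with at least 2 UMIs. Lyve1 had 10.97 CPM in these cells (8.52 to 13.9), against 87.2 CPM in the other day 1 cells (74.0 to 102), and was 7.95-fold lower (5.94 to 10.7). Cbr2 was 2.03-fold lower (1.84 to 2.24) and Msr1 1.18-fold higher (1.04 to 1.33). Msr1 at day 1 was thus found at similar levels across cells with and without these markers. Cx3cr1, the fractalkine receptor, marked 81 steady-state cells in which Folr2 was 2.94-fold lower (2.46 to 3.54) and Lyve1 2.78-fold lower (1.83 to 4.43) than in the other cells. Cd163 had 280 CPM in Cx3cr1 cells (213 to 362), against 337 CPM in the other cells (308 to 368).

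Cells at steady state often held several of the 8 genes. After drawing down to 1000 UMIs, at least 2 of the genes were found in 54.2% of steady-state cells (50.3 to 58.1), 14.8% of day 1 cells (13.5 to 16.3) and 17.3% of day 5 cells (15.6 to 19.2). None of the 8 was found in 17.6%, 53.0% and 52.3% of cells. The mean number of genes per cell was 1.70 at steady state, 0.672 at day 1 and 0.710 at day 5. At 1500 UMIs per cell the shares with at least 2 genes were 65.8%, 23.6% and 21.5%, so the order of the injured libraries depends on that depth.

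**Figure D3:**
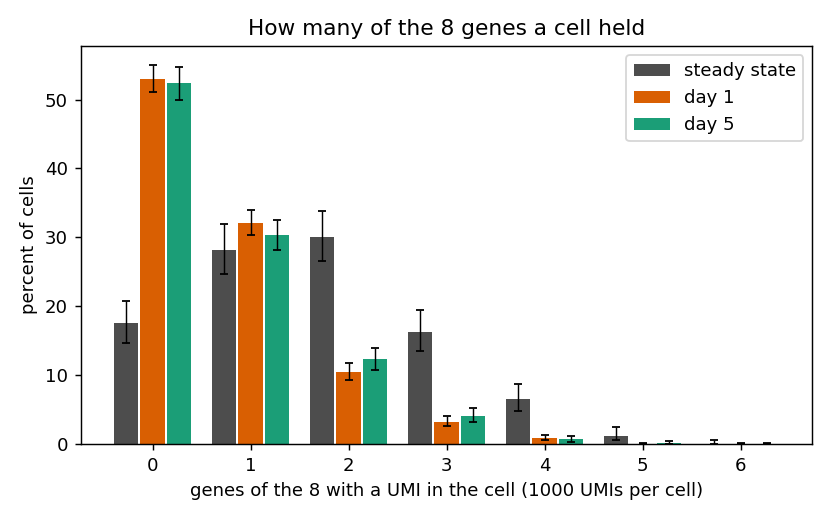
Percent of cells of each library by how many of the 8 genes they held, after each cell was drawn down to 1000 UMIs, with exact 95% binomial intervals for counting error. Cells with none of the genes make up 17.6% of the steady-state library, 53.0% at day 1 and 52.3% at day 5.

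Folr2 and Cbr2 were found together at steady state, where Cbr2 was in 58.3% of cells with Folr2 and 32.8% of cells without it. Lyve1 cells held Folr2 in 68.3% of cases, against 49.2% of cells without Lyve1. Cells with Cd163 held Folr2 in 59.2% of cases and Cbr2 in 47.4%, against 50% and 45.7% of cells without Cd163. They held Lyve1 in 19.1% and Mrc1 in 28.3% of cases, against 14.8% and 25.9%. The intervals of each of these 4 pairs of shares overlap. At steady state Lyve1 cells held Cbr2 in 61.4%, Cd163 in 28.7% and Mrc1 in 24.8% of cases. The shares of cells without Lyve1 were 43.2%, 22.9% and 26.8%, and the intervals overlap for Cd163 and Mrc1. After injury the few Lyve1 cells also carried these genes often, while fewer of the cells without Lyve1 held them. At day 1 the 49 cells with Lyve1 held Mrc1 in 57.1% of cases, Cbr2 in 53.1%, Folr2 in 49.0% and Cd163 in 28.6%, against 17.1%, 13.9%, 12.9% and 2.90% of cells without Lyve1. At day 5 the 34 cells with Lyve1 held Folr2 in 67.6%, Cbr2 in 64.7%, Mrc1 in 41.2% and Cd163 in 20.6%, against 23.5%, 16.5%, 19.2% and 2.35%. At 1500 UMIs per cell the Cd163 shares at day 5 were 11.1% of 27 cells (2.35 to 29.2) and 3.26% (2.39 to 4.32), with overlapping intervals. The Mrc1 shares there were 37.0% and 23.7%, also with overlapping intervals. The day 1 cells with Msr1, 388 in number, showed no such company. They held Cbr2 in 12.9%, Folr2 in 11.3% and Cd163 in 2.58% of cases, against 15.04%, 14.0% and 3.56% of cells without Msr1. At 1500 UMIs the Cd163 shares were 5.91% and 4.67%, the other way round, with overlapping intervals.

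**Figure D4:**
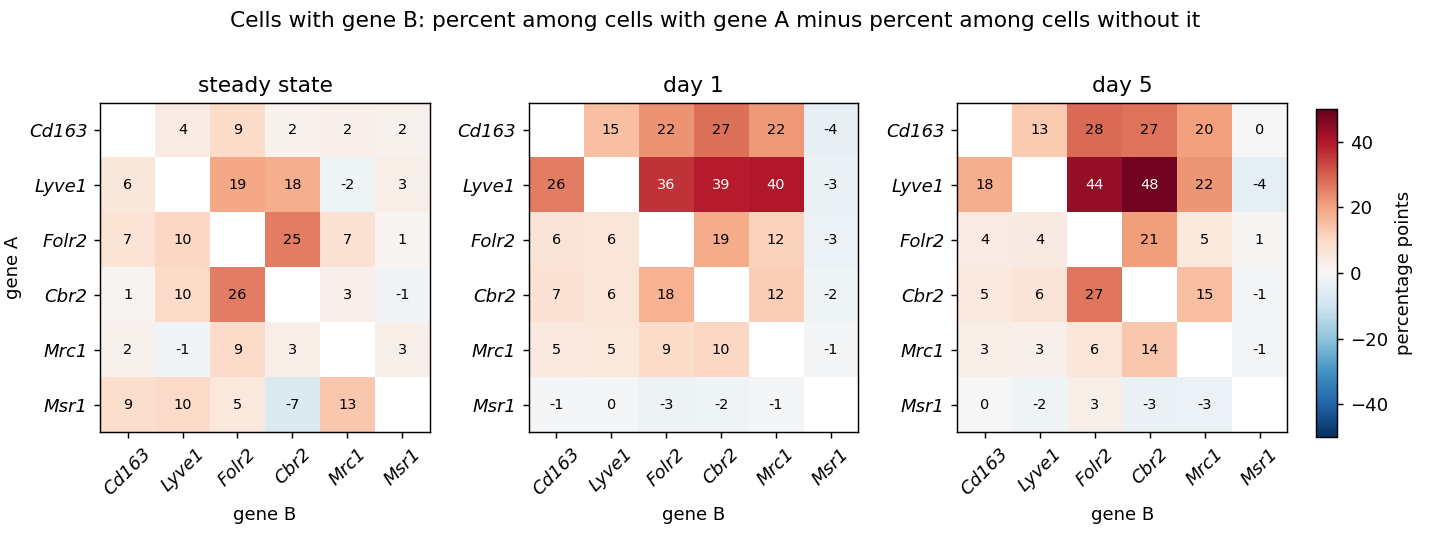
Percentage points by which gene B was more frequent among cells with gene A (rows) than among cells without it, in each library after drawing down to 1000 UMIs per cell, with red for more frequent and blue for less frequent. The Lyve1 row is pale at steady state for Cd163 and Mrc1 and dark at day 1, when Mrc1 is in 57.1% of Lyve1 cells and 17.1% of the rest.

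The genes whose level per cell was most like that of a member were listed for members found in at least 10% of a library's cells, by Pearson correlation over cells of log2(UMIs per 10000 + 1). At steady state, over 728 cells, Folr2 was most like Cd209f (r = 0.51), Cd209g (0.50) and Retnla (0.48), and Lyve1 like Cd209f (0.27). Cbr2 was most like Folr2 in 2 of the 3 libraries, with r = 0.34 at steady state and 0.35 at day 5. The highest values for Cd163 and Mrc1 at steady state were 0.16 and 0.15, which is too weak in sparse counts to be a finding. At day 1 the genes most like Cbr2 were the antibody transport receptor Fcgrt (0.35), Folr2 (0.31) and the complement gene C1qa (0.26). All cells of a correlation come from 1 library and share its depth spread.

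Genes of the same pathways were described from 6 lists by the same 2-fold rule. Of 20 other scavenger receptors, 7 passed the floor in each comparison with steady state. Cd36, a receptor for oxidised lipids and fatty acids, had 262.6 CPM at steady state, 67.7 CPM at day 1 and 42.0 CPM at day 5, and was 3.88-fold lower at day 1 (3.41 to 4.41) and 6.25-fold lower at day 5 (5.32 to 7.37). Lrp1, a large endocytic receptor, was the 1 gene higher at day 1, by 2.34-fold (1.98 to 2.79), and had a ratio of 1.95 at day 5 (1.64 to 2.34). Cxcl16, which also takes up oxidised lipoprotein, was the 1 gene higher at day 5, by 2.10-fold (1.83 to 2.43). Scarb2, a lysosomal receptor, had a ratio of 1.99 at day 5 (1.57 to 2.54). The 1 of 7 in each direction is near the share of all genes, which was 18.7% higher and 12.6% lower at day 1 and 7.89% and 9.56% at day 5.

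Of 10 genes that handle haemoglobin and haem, the ligand and products of the Cd163 route, 8 passed the floor. At day 1, 4 were higher, against 18.7% of all genes, and 1 was lower, against 12.6%. At day 5, 2 were higher, against 7.89% of all genes, and 0 lower, against 9.56%. The lower gene of day 1 was Blvrb, with 654 CPM at steady state, 289 CPM at day 1 and 348 CPM at day 5. Blvrb was 2.27-fold lower at day 1 (2.11 to 2.44) and 1.88-fold lower at day 5 (1.74 to 2.02). Lrp1, counted among the other scavenger receptors too, was 1 of the 4 higher at day 1. Haptoglobin, Hp, which forms the complex that Cd163 binds, had 4.23 CPM at steady state from 7 UMIs, 307 CPM at day 1 and 99.2 CPM at day 5. Hp was 72.7-fold higher at day 1 (35.2 to 181) and 23.5-fold higher at day 5 (11.3 to 58.7), the opposite direction to Cd163. Haem oxygenase 1, Hmox1, had 327 CPM at steady state, 993 CPM at day 1 and 375 CPM at day 5, and was 3.04-fold higher at day 1 (2.79 to 3.32). The ferritin heavy chain Fth1 was 2.30-fold higher at day 1 (2.27 to 2.34) and 2.02-fold higher at day 5 (1.98 to 2.05).

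Of 11 hyaluronan genes, Cd44, the other main hyaluronan receptor beside Lyve1, was the only one past the floor. It had 52.5 CPM at steady state, 225 CPM at day 1 and 109 CPM at day 5, and was 4.28-fold higher at day 1 (3.45 to 5.37) and 2.07-fold higher at day 5 (1.65 to 2.62). Lyve1 and Cd44 thus differed from steady state in opposite directions. Of 11 folate genes, Ggh, which trims stored folates, was the only one past the floor. Its ratios were 1.01 at day 1 (0.862 to 1.19) and 1.08 at day 5 (0.916 to 1.27), while the folate receptor Folr2 was lower.

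All 19 genes of a list of resident macrophage companions passed the floor, a list chosen with earlier results of these data known. At day 1, 12 were lower, against 12.6% of all genes, and 1 higher, against 18.7%. At day 5, 14 were lower, against 9.56%, and 3 higher, against 7.89%. The median log2 ratios were -2.88 at day 1 and -1.68 at day 5, against 0.25 and 0.07 for all genes. Timd4, a receptor for phosphatidylserine on dying cells, had 129 CPM at steady state, 6.03 CPM at day 1 and 2.35 CPM at day 5, and was 21.4-fold lower at day 1 (15.6 to 29.96) and 54.9-fold lower at day 5 (31.4 to 105). Retnla, a secreted resistin-like protein, was 82.4-fold lower at day 1 (76.2 to 89.2) and 3.90-fold lower at day 5 (3.80 to 4.01). Retnla, like Folr2, was thus nearer to steady state at day 5 than at day 1. Between day 5 and day 1, 17 of the listed genes passed the floor. Of these, 9 were at least 2-fold higher at day 5, against 3.38% of all genes, and 2 at least 2-fold lower, against 6.41%. The phospholipase Pla2g2d was 192-fold lower at day 1 (87.1 to 529) and 133-fold lower at day 5 (60.4 to 367). Cd209f, also one of the genes that split the cells, was 88.3-fold (74.7 to 105) and 22.9-fold (20.6 to 25.5) lower.

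Of 14 macrophage transcription factors, 8 passed the floor, with 3 lower, against 12.6% of all genes, and 0 higher, against 18.7%, at day 1. At day 5, 2 were lower, against 9.56%, and 1 was higher, against 7.89%. Nr3c1, the glucocorticoid receptor, known to induce Cd163, had 118 CPM at steady state, 32.9 CPM at day 1 and 53.8 CPM at day 5, and was 3.58-fold lower at day 1 (2.96 to 4.32) and 2.19-fold lower at day 5 (1.82 to 2.63). Klf4 was 2.65-fold lower at day 1 (2.46 to 2.86) and 3.09-fold lower at day 5 (2.84 to 3.36). Cebpb was 2.16-fold lower at day 1 (2.01 to 2.31) and had a ratio of 1.04 at day 5 (0.971 to 1.11). Id3 had a ratio of 1.33 at day 1 (1.02 to 1.75) and was 2.46-fold higher at day 5 (1.90 to 3.24). Whether any of these factors bears on the 8 genes was not tested.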

How the data were processed

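The authors deposited, for each library, whole-number UMI counts per gene and cell barcode, not normalized. Cell Ranger 2.0.2 and the build mm10 are named per the submitters' processing notes. The sources do not give the sort, the animals per library or any earlier removal of doublets. A deposited table that pools the libraries held 14774638 UMIs, 97.5% of the 15158309 UMIs in the sample tables. Its 5586 columns of cells were not used here beyond this total and the totals of the 8 genes, which were 94.0% to 100% of those in the sample tables.

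Barcodes with at least 200 genes and at most 10% mitochondrial UMIs were kept, 5580 of 5586. The 6 removed all had fewer than 200 genes. No doublets were called or removed, and an alternative left out the 5% of cells with the most UMIs per library. UMIs were summed per library or per kind of cell and scaled to CPM. A ratio has an exact conditional binomial interval, a CPM has an exact Poisson interval and a cell share has a Clopper-Pearson interval, each at 95%. With 1 library per time point no p-value was computed. A count of 0 was replaced by 3 counts, which are 1.81 CPM at steady state, 0.377 CPM at day 1 and 0.543 CPM at day 5. Cells were drawn down to 1000 UMIs at random (seed 7). The scripts used Python 3.11.15, numpy 2.4.6, scipy 1.17.1, pandas 2.3.3 and matplotlib 3.10.9, and the ratio and call steps were tested on simulated data. The named genes are the 8 members, up to 4 genes per list past the 50 CPM floor that differed most from steady state, and up to 3 most alike genes per member, of which the text gives some. Blvrb is named besides, as the 1 lower gene of its list at day 1. The 8 genes, the lists and the marker splits were chosen with earlier results of these data known. 1 gene of the monocyte list and 1 of the transcription factor list are not reported here and entered no list sum, split or count.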

Additional observations from a re-analysis of the deposited data

How the results depend on the processing

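No paired analysis was possible because each time point was 1 library. The cell filter (none, or at least 500 genes), median-of-ratios scaling, equal weight per cell, a floor of 10 CPM, and leaving out dendritic-marker cells, cells with markers of other cell types, the 5% of cells with the most UMIs or the cell with the most Lyve1 UMIs (chosen after seeing the data) left the number of members past 2-fold at 5 for day 1 and 4 for day 5 against steady state. Against day 1, the day 5 number was 2, with Folr2 higher beside Msr1 lower, in place of 1, with equal weight per cell and without the 5% of cells with the most UMIs. The cause was not tested. With equal weight per cell, Lyve1 had a day 5 to day 1 ratio of 1.06 in place of 0.747. Over all genes past the 10 CPM floor, 1156 were higher and 1042 lower at day 1 than at steady state, 677 and 761 at day 5, and 327 and 365 at day 5 against day 1, against 516 and 348, 204 and 247, and 86 and 163 at 50 CPM. Over these settings Cd163 was 7.21- to 8.23-fold lower at day 1 and 9.03- to 12.2-fold lower at day 5, and Lyve1 9.13- to 11.2-fold and 9.55- to 14.0-fold lower. Of 467 alternative values, 331 moved by less than their counting interval and 135 by more, and 1 was a ratio past 2-fold that changed direction. Some of the 135 follow from the setting itself, since the share of cells with a gene changes with depth and with the UMI line. Among them were 15 such shares at 1500 UMIs per cell, 17 without drawing down and 20 at a line of 2 UMIs. A number of members was judged by its fold change in place of an interval. Other ratios were not checked for direction, and some crossed equal levels, as Lyve1 did between day 5 and day 1. Of the 126 co-detection values at 1500 UMIs per cell, 36 moved by more. The ratio past 2-fold that changed direction was Msr1 within lectin cells. Its day 5 to steady state ratio of 2.06 was 0.883 with a line of 1 lectin UMI, a line chosen after seeing the data. Within lectin cells, Mrc1 had a day 1 ratio of 1.80, and 0.998 with a line of 4 lectin UMIs. A repeat on the pooled table was not run, since its columns are not mapped to samples here. Depth limits Marco and Vsig4, with at most 26 UMIs in a library, and the 51 lectin cells of day 1.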

Other observations

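The steady-state cell with the most Lyve1 UMIs held 46 of the 462 in that library (9.96%) among 3444 UMIs. It also had 77 UMIs of the macrophage list and 24 of the Cd209 lectins, 4 of the monocyte markers, and 0 of the lymphatic or blood endothelial markers. The top Lyve1 cells of the injured libraries, with 11 UMIs at day 1 and 13 at day 5, held 186 and 78 macrophage UMIs and 0 endothelial ones. They also had 11 and 5 UMIs of the Cd209 lectins, and 8 and 19 of the monocyte markers.

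None of the 12 Marco cells of day 5 was a lectin cell, 2 held at least 2 monocyte-marker UMIs, 3 held Cx3cr1 and 1 was a dendritic-marker cell. Of the 8 Vsig4 cells at steady state, 6 were lectin cells, 6 held Folr2 and 5 held Lyve1. Of the 6 Vsig4 cells at day 5, 3 were lectin cells.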
